A study of Mus musculus with 36 samples.

Results

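The 10 genes described here belong to autophagy and mitophagy: Map1lc3a, Map1lc3b, Gabarapl1, Sqstm1, Bnip3, Bnip3l, Ulk1, Ctsl, Becn1 and Tfeb. They were found by gene symbol in the deposited count table, which holds 46893 features, and each of the 10 symbols matched 1 feature. The gastrocnemius muscle of 36 male wild-type C57BL/6 mice was sequenced, with 1 library per mouse and 6 mice in each of 6 groups. All mice entered the protocol at 3 to 4 weeks of age and stayed on it for 12 weeks. NFD-C mice were sedentary on a normal-fat diet and HFD-C mice were sedentary on a high-fat diet. The other 4 groups ate the high-fat diet and ran on wheels in their cages with programmed distances: the unrestricted group, HFD-U, covered 8.3 km per day, and the restricted groups were held to 2.1 km (HFD-25%), 4.2 km (HFD-50%) and 6.3 km (HFD-75%) per day. The diet is the only labelled difference between NFD-C and HFD-C, and all 5 high-fat groups share it, so an effect of running on a normal-fat diet cannot be read from these data.

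Autophagy encloses cytoplasm in a double membrane and delivers it to the lysosome for breakdown. The kinase Ulk1 starts the process and Becn1, a subunit of a lipid kinase complex, helps to build the membrane, onto which LC3 and GABARAP proteins (Map1lc3a, Map1lc3b, Gabarapl1) are coupled. Sqstm1 (p62) carries cargo to the membrane, Bnip3 and Bnip3l sit on mitochondria and mark them for removal (mitophagy), Ctsl encodes the lysosomal protease cathepsin L, and Tfeb is a transcription factor for lysosomal and autophagy genes. In skeletal muscle, several of these genes are known targets of FOXO transcription factors in fasting and atrophy. RNA levels do not measure autophagic flux.

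By the coordinates in the count table, which are those of GRCm39, the 3 LC3 and GABARAP genes lie at chr2:155118284-155119993 (Map1lc3a, plus strand), chr8:122317177-122325499 (Map1lc3b, plus) and chr6:129510155-129519294 (Gabarapl1, plus). Sqstm1 lies at chr11:50090979-50105303 (minus), Bnip3 at chr7:138492565-138511235 (minus) and Bnip3l at chr14:67222688-67246580 (minus). Ulk1 lies at chr5:110932355-110957991 (minus), Becn1 at chr11:101179084-101193112 (minus), Ctsl at chr13:64509704-64518586 (minus) and Tfeb at chr17:48047962-48103341 (plus). All values are for the whole gene, counted over its exons.

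Library totals ranged from 13060090 to 27981702 counted reads (median 16710687.5). The sum of 8 skeletal muscle markers lay between 86572 and 166193 CPM (counts scaled to a common library size) in all 36 libraries. A group of 5 features related to ribosomal RNA split the libraries, by their part of the total, into a high set and a low set. The high set held all 6 NFD-C mice and 4 of the 6 HFD-C mice, at 2.01 to 3.80% of counts, and the low set held the other 2 HFD-C mice (5 and 6) and all 24 runners, at 0.404 to 1.02%. One library, HFD-50% mouse 4, stood apart from all others in most of the genes described here, so the tests that use it are given with and without it. The tissue is a mixture of cells, so fewer cells of a type and less RNA per cell cannot be told apart.

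The genes were read per length first, as FPKM, that is, TMM-scaled CPM divided by the exon length in kilobases. Over all 36 mice Bnip3 had the highest level, 183 ± 47.7 FPKM (SD, n = 36). It was followed by Map1lc3a with 158 ± 37.2 FPKM and Sqstm1 with 136 ± 26.2 FPKM. The SD ranges of these 3 genes overlapped, and differences between genes within the same mice were not tested. Map1lc3b was lower, at 66.7 ± 16.5 FPKM. Gabarapl1 had 31.7 ± 14.7 FPKM and Ctsl 23.7 ± 7.12 FPKM, which overlapped. At the low end were Becn1 at 17.0 ± 1.59 FPKM, Ulk1 at 15.6 ± 3.47 FPKM, the mitophagy gene Bnip3l at 15.2 ± 2.63 FPKM and the regulator Tfeb at 10.7 ± 1.62 FPKM. Spread between mice was widest for Gabarapl1, with a coefficient of variation of 46.4%, and narrowest for Becn1, with 9.32%.

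**Figure D1:**
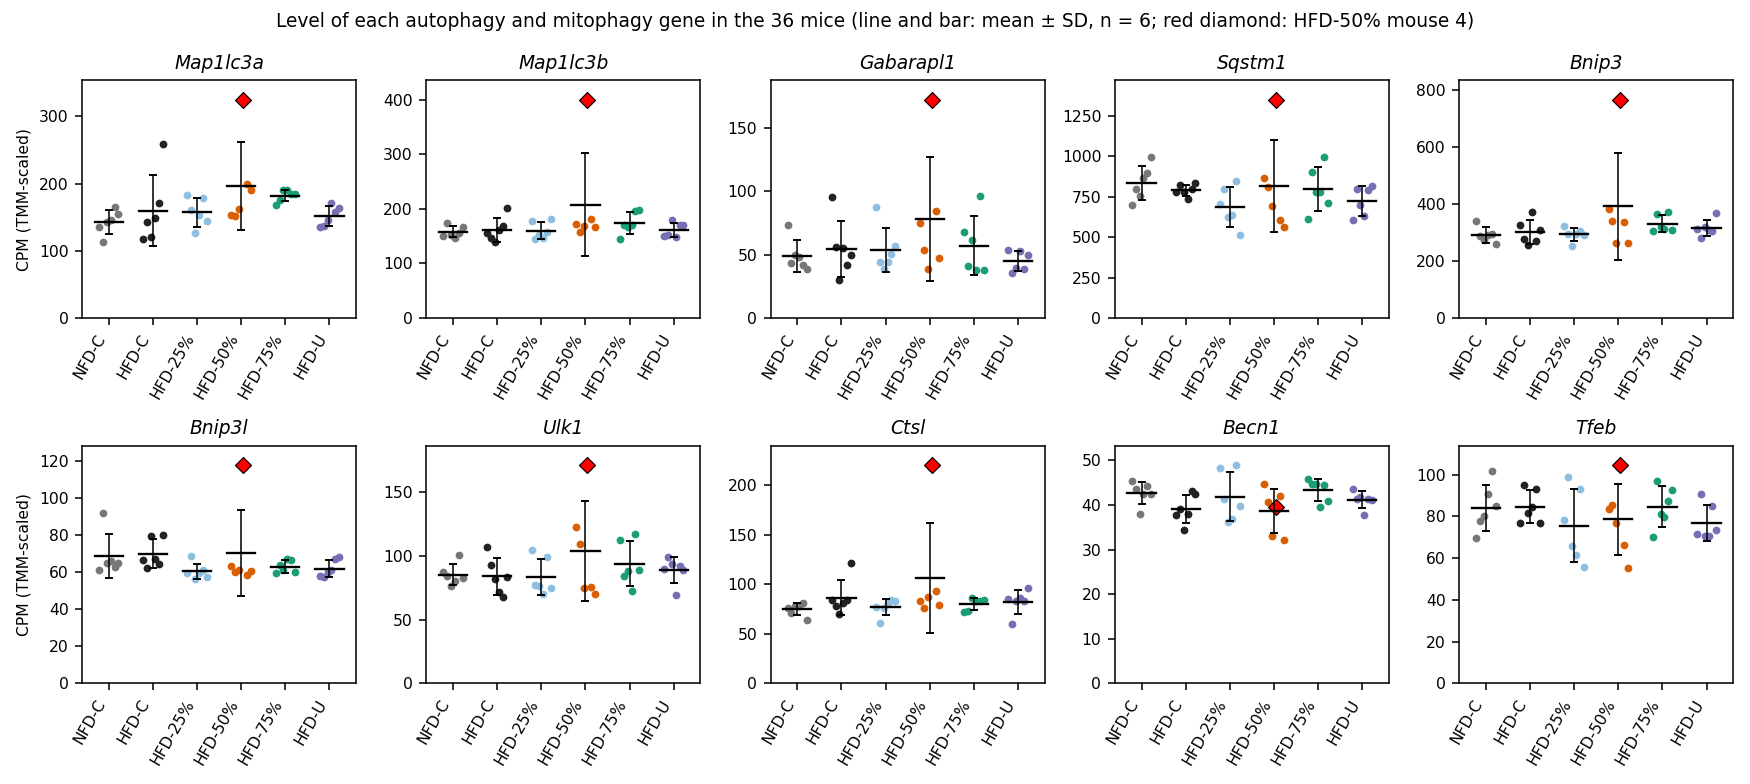
Level of each of the 10 genes in each mouse, as TMM-scaled CPM on a linear axis that starts at 0, by group. Dots are mice, lines and bars are the mean ± SD of 6 mice, and the red diamond is HFD-50% mouse 4, which was the highest of all 36 mice for 9 genes and in the middle of its group for Becn1.

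The group means of each gene lay close together. The highest group mean exceeded the lowest by 1.74-fold for Gabarapl1, 1.42-fold for Ctsl, 1.38-fold for Map1lc3a, 1.34-fold for Bnip3 and 1.32-fold for Map1lc3b. For Ulk1 the ratio was 1.24, for Sqstm1 1.22, for Bnip3l 1.16, and for Becn1 and Tfeb 1.12 each. HFD-50% had the highest mean for 7 of the 10 genes, the exceptions being Sqstm1 (NFD-C), Becn1 (HFD-75%) and Tfeb (HFD-C). Without mouse 4 the HFD-50% mean was the highest for 1 gene, Gabarapl1 (59.7 CPM, with 57.2 CPM in HFD-75% next). None of the 10 genes passed an adjusted p of 0.05 in edgeR's quasi-likelihood test of a difference among the 6 groups, where 1.45% of the 12053 genes tested passed. A difference is called nominal below where p before adjustment was 0.05 or less, the limit that the study used. None of the 10 genes was nominal among the 6 groups, against 12.2% of all genes tested. The smallest adjusted p-values were those of Map1lc3a (adjusted p = 0.43), Ctsl (adjusted p = 0.45) and Map1lc3b (adjusted p = 0.50), all from edgeR. In DESeq2, 1 gene, Map1lc3a, was nominal beside 14.5% of genes tested, and none passed the adjusted p. With HFD-50% mouse 4 left out, the smallest adjusted p of the 10 genes was 0.49, for Bnip3l, and again none was nominal in edgeR, where 11.1% of genes tested were.

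The LC3 and GABARAP genes encode the small proteins that are coupled to the growing membrane. Map1lc3a lay between 113 and 166 CPM in NFD-C, with a median of 144 CPM. In HFD-C it lay between 118 and 259 CPM, with a median of 145 CPM, and the highest value was that of mouse 6. Among runners the medians were 157 CPM for HFD-25% (126 to 183), 176 CPM for HFD-50% (152 to 324), 184 CPM for HFD-75% (168 to 190) and 152 CPM for HFD-U (136 to 171). HFD-75% was thus the tightest group, and its 6 mice lay above the HFD-C median and above 5 of the 6 HFD-U mice, with 1 HFD-U value, 171 CPM, inside the HFD-75% range. Map1lc3a was higher in HFD-75% than in HFD-U by 0.27 on the log2 scale (SE 0.088, adjusted p = 0.63 in edgeR), a nominal difference in a comparison where 5.57% of the 11841 genes tested were nominal and 0.00% passed the adjusted p.

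The same gene was the only nominal one of the 10 for a linear and a quadratic term of distance over the 24 runners (adjusted p = 0.50, edgeR), where 8.49% of genes tested were nominal and 0.0419% passed the adjusted p. It stayed nominal when HFD-50% mouse 4 was left out (adjusted p = 0.62, edgeR). Over the 30 high-fat mice, HFD-C included, none of the 10 genes was nominal (adjusted p = 0.56 for Map1lc3a in edgeR), whereas 12.2% of genes tested were and 0.683% passed the adjusted p. With HFD-50% mouse 4 left out, 1 of the 10 was nominal in this test, beside 11.6% of genes tested, and none passed the adjusted p. Among the runners Map1lc3a thus had its highest means in HFD-50% (197 CPM) and HFD-75% (182 CPM) without passing the adjusted threshold.

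Map1lc3b, the LC3 form most used as a marker of autophagosomes, had medians between 154 and 170 CPM in all 6 groups. Its values lay between 139 and 202 CPM in 35 mice and at 400 CPM in HFD-50% mouse 4. Gabarapl1, a GABARAP-type family member, varied more. Its medians were 45.7 CPM in NFD-C (38.4 to 73.5), 52.3 CPM in HFD-C (30.1 to 95.5), 47.5 CPM in HFD-25% (38.5 to 87.3), 64.3 CPM in HFD-50% (38.4 to 172), 51.5 CPM in HFD-75% (37.9 to 96.4) and 44.4 CPM in HFD-U (35.7 to 53.5). The lowest values of the groups were alike, and the groups differed in how many mice stood above them.

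Gabarapl1 was higher in HFD-50% than in HFD-U by 0.81 on the log2 scale (SE 0.30, adjusted p = 0.31 in edgeR), the only nominal difference of the 10 genes in a comparison where 12.4% of the 11851 genes tested were nominal and 0.00844% passed the adjusted p. Leaving out HFD-50% mouse 4, the difference was 0.40 (SE 0.19, adjusted p = 0.44 in edgeR) and still nominal. Of 7 slow muscle fibre markers, 6 were also nominally higher in HFD-50%, with the sum of the list at 587 to 3892 CPM against 145 to 1811 CPM in HFD-U, and no marker at 0 in all libraries. The part of fibre type in the Gabarapl1 values was not tested. The mouse numbered 1 had the highest Gabarapl1 of its group in 4 of the 6 groups, and the same was true of Becn1. Over all genes tested, 14.0% had the mouse numbered 1 highest in 4 or more groups. What a mouse number stands for is not given in the sources used here, and its part in the Gabarapl1 values was not tested.

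Sqstm1 encodes the receptor p62, which binds ubiquitin-tagged cargo and LC3. Its CPM medians were 833 in NFD-C (701 to 994), 786 in HFD-C (734 to 832), 672 in HFD-25% (510 to 847), 753 in HFD-50% (562 to 1346), 779 in HFD-75% (610 to 996) and 742 in HFD-U (607 to 818). HFD-C was the tightest group and the runners spread to both sides of it. Bnip3, the mitophagy receptor that hypoxia and FOXO3 are known to induce, had medians of 290 CPM in NFD-C, 295 CPM in HFD-C and HFD-25%, 339 CPM in HFD-50%, 317 CPM in HFD-75% and 310 CPM in HFD-U. Values lay between 254 and 383 CPM in 35 mice and at 766 CPM in HFD-50% mouse 4.

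Bnip3l (NIX), the paralogue that clears mitochondria in maturing red cells, had its highest medians in the sedentary mice. These were 65.0 CPM in NFD-C (60.9 to 92.1) and 67.0 CPM in HFD-C (62.1 to 80.2). The runners had 59.6 CPM in HFD-25% (56.4 to 68.5), 60.9 CPM in HFD-50% (58.3 to 118), 62.5 CPM in HFD-75% (59.3 to 67.2) and 60.5 CPM in HFD-U (57.7 to 68.0). Against HFD-C it was lower by 0.21 on the log2 scale in HFD-25% (SE 0.10, adjusted p = 0.72 in edgeR), a nominal difference where 6.98% of the 12202 genes tested were nominal. It was no longer nominal with a block for mouse number (adjusted p = 0.64 in edgeR), nor in 8 of the 12 fits that each left out 1 mouse. The difference was -0.15 in HFD-75% (SE 0.096) and -0.18 in HFD-U (SE 0.10), neither nominal. In HFD-50% it was 0.01 with mouse 4 and -0.21 without it (SE 0.10), not nominal in either case. The sedentary and running libraries also differ in the ribosomal RNA share given above, and against the 2 low-set HFD-C mice alone HFD-25% differed by -0.25, HFD-U by -0.22, HFD-75% by -0.19 and HFD-50%, mouse 4 included, by -0.03, none of them nominal.

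Ulk1 is the kinase that AMPK activates and mTORC1 holds back. Its CPM medians were 83.4 in NFD-C and 82.3 in HFD-C, and those of the runners 76.5 (HFD-25%), 92.2 (HFD-50%), 88.4 (HFD-75%) and 90.9 (HFD-U). All values outside HFD-50% lay between 67.5 and 117 CPM, and HFD-50% reached from 70.3 to 171 CPM, with mouse 1 (123 CPM) and mouse 4 at the top. Becn1 had medians between 38.5 and 44.5 CPM, and its 36 values lay between 32.1 and 48.8 CPM. In HFD-75% all 6 mice were above the HFD-C median, with a difference of 0.15 on the log2 scale (95% interval -0.03 to 0.34, adjusted p = 0.99 in edgeR).

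Ctsl, whose protease breaks down the delivered cargo, had medians of 77.1 CPM in NFD-C and 82.7 CPM in HFD-C. The runners had 79.5 CPM in HFD-25%, 85.3 CPM in HFD-50%, 83.0 CPM in HFD-75% and 84.1 CPM in HFD-U. HFD-50% mouse 4 had 220 CPM and HFD-C mouse 6 had 122 CPM, while the other 34 mice lay between 60.1 and 96.3 CPM. HFD-C mouse 6 was also the highest of its group for Map1lc3a and Map1lc3b (202 CPM). Tfeb had medians between 72.0 and 84.2 CPM, and its 36 values lay between 55.2 and 104 CPM with overlap of all groups.

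**Figure D2:**
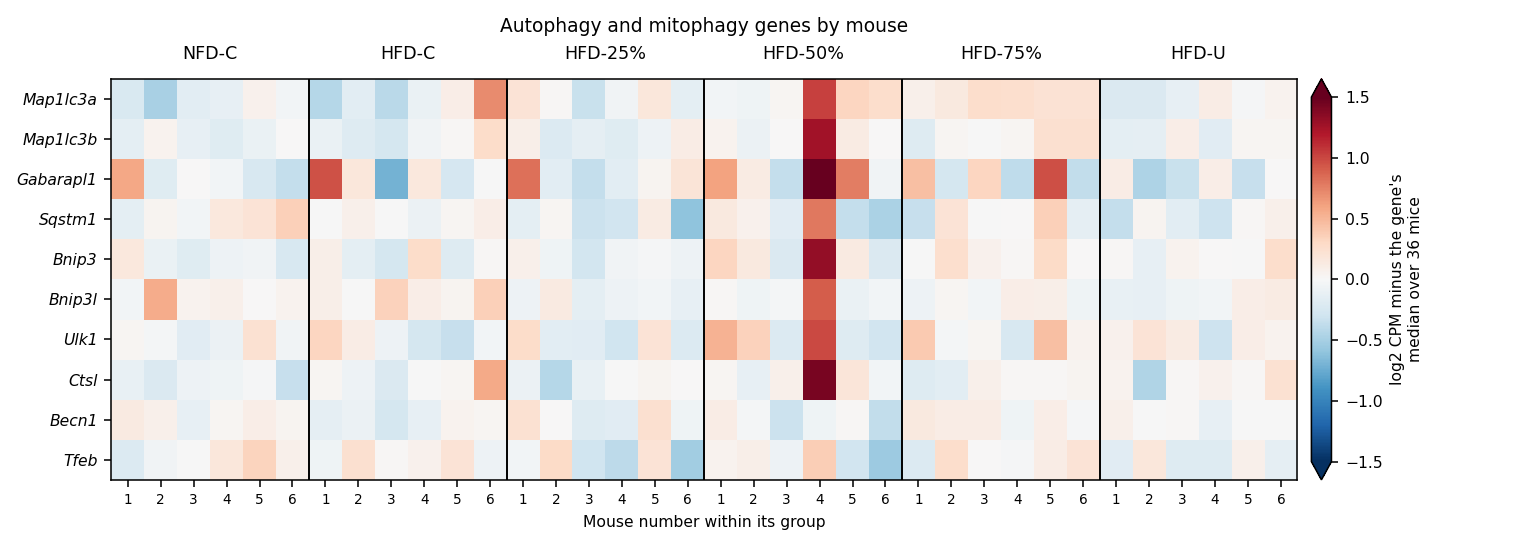
Level of the 10 genes (rows) in each of the 36 mice (columns, numbered within their group), as log2 CPM minus the median of the gene over all mice. The column of HFD-50% mouse 4 holds the highest value of the row in all rows but Becn1.

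No gene was called between the 2 sedentary diets. For NFD-C against HFD-C the log2 fold changes of the 10 genes lay between -0.20 (Ctsl, SE 0.13) and 0.13 (Becn1, SE 0.093), with a median of -0.03. No gene was nominal in edgeR or DESeq2, where 4.12% of the 12247 genes tested were nominal in edgeR and 0.00% passed the adjusted p. All NFD-C mice are in the high set and HFD-C is divided between the sets, so this contrast is not free of that split.

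Each running group was then compared with HFD-C, with the same HFD-C mice in all 4 comparisons. In HFD-25% the log2 fold changes lay between -0.21 (Bnip3l) and 0.10 (Becn1), with a median of -0.03. In HFD-50% they lay between -0.10 (Tfeb) and 0.54 (Gabarapl1), with a median of 0.31 beside 0.01 for all genes tested, and 8 of the 10 were above 0. In HFD-75% they lay between -0.15 (Bnip3l) and 0.20 (Map1lc3a), with a median of 0.10, and 8 were above 0. In HFD-U they lay between -0.27 (Gabarapl1) and 0.08 (Ulk1), with a median of -0.07. Bnip3l in HFD-25% was the only nominal gene in these 4 comparisons. None was nominal in HFD-50%, where 10.7% of the 12116 genes tested were, nor in HFD-75% (5.47% of genes tested) or HFD-U (5.46%). Between running groups, none of the 10 was nominal in HFD-25% against HFD-U (5.10% of genes tested), HFD-50% (2.69%) or HFD-75% (3.12%), or in HFD-50% against HFD-75% (5.37%). The count was 0 as well without HFD-50% mouse 4 for HFD-50% against HFD-25% (1.69% of genes tested) and HFD-75% (4.45%). All 10 were lower in HFD-25% than in HFD-75%, with log2 fold changes from -0.21 to -0.05. Their median was -0.14, beside -0.003 for all genes tested. Genes that vary together between mice are not separate observations, so the shared sign is only a description. No gene passed the adjusted threshold in any of the 11 comparisons of 2 groups, and the shares of all genes that did were 0.00% in HFD-50%, HFD-75% and HFD-U against HFD-C and 0.00820% in HFD-25%. DESeq2 found none past the adjusted threshold either, and in HFD-25% against HFD-75% it had Map1lc3a and Bnip3 as nominal, beside 3.7% of genes tested.

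All runners are in the low set, so the comparisons were also run with the 2 low-set HFD-C mice alone, which leaves few sedentary mice. The difference of Map1lc3a was then -0.50 in HFD-U, in place of -0.07 against all 6 HFD-C mice, and nominal (adjusted p = 0.33 in edgeR) beside 11.8% of genes tested. In HFD-25% the difference was -0.44 for Map1lc3a and -0.40 for Ctsl, both nominal beside 11.6% of genes tested. In HFD-75% Ctsl differed by -0.35, nominal beside 8.99%, and Map1lc3a by -0.23, the other sign from the 0.20 against all HFD-C mice. One of these 2 HFD-C mice is mouse 6, which had the highest Map1lc3a and Ctsl of its group. No gene passed the adjusted threshold in these fits.

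The intervals show what sizes these groups of 6 could not tell from 0. For HFD-50% against HFD-C the 95% interval ran from -0.18 to 1.25 for Gabarapl1, from -0.12 to 0.89 for Bnip3, from -0.10 to 0.84 for Map1lc3b and from -0.22 to 0.84 for Ctsl. It was narrower for Becn1, from -0.25 to 0.23. For HFD-U against HFD-C the interval of Map1lc3b ran from -0.23 to 0.23.

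The 0.31 median in HFD-50% rested on 1 mouse. Once HFD-50% mouse 4 was left out, the median over the 10 genes was 0.02 and 5 were above 0. The differences then became 0.13 for Gabarapl1 (SE 0.26), 0.07 for Bnip3 (SE 0.14), 0.06 for Map1lc3b (SE 0.12), 0.11 for Ulk1 (SE 0.16) and 0.10 for Map1lc3a (SE 0.19). Ctsl moved from 0.31 to -0.05 (SE 0.14) and Sqstm1 from 0.05 to -0.16 (SE 0.13). No gene was nominal without this mouse, where 9.84% of genes tested were.

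**Figure D3:**
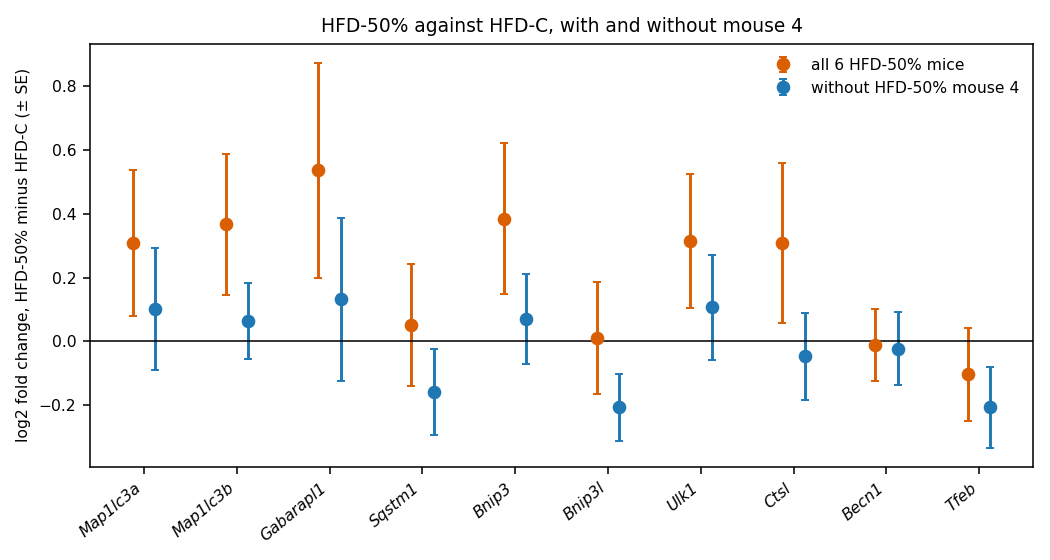
Log2 fold change of each gene in HFD-50% minus HFD-C, with bars of 1 SE from edgeR, with all 6 HFD-50% mice (orange) and without mouse 4 (blue). Orange points reach 0.54, whereas all blue points lie between -0.21 and 0.13.

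HFD-50% mouse 4 had the highest level of all 36 mice for 9 of the 10 genes. In the whole table this mouse was highest for 15.7% of the 12053 genes tested, the median log2 ratio to the other 35 mice was 1.03 over the 10 genes, and it was -0.02 over all genes. Gabarapl1 was 3.49-fold the median of the other 35 mice, at 172 CPM against 49.3 CPM. Ctsl was 2.70-fold, Bnip3 2.50-fold, Map1lc3b 2.39-fold, Map1lc3a 2.06-fold, Ulk1 2.03-fold, Bnip3l 1.89-fold, Sqstm1 1.73-fold and Tfeb 1.30-fold. Becn1 was the exception, at 39.4 CPM against 41.4 CPM and in the 26th place of 36. With 1 mouse there is no test of this pattern.

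The genes that stood highest in this mouse were counted by step of the pathway. Lists of 96 further autophagy, lysosome and regulator genes were used, none of them among the 10. Of the 96, 24 (25.0%) were highest in this mouse and 11 (11.5%) lowest, beside 15.7% and 15.3% of all genes tested. Among cargo receptors, Retreg1, a receptor for the endoplasmic reticulum, stood at 1015 CPM against 207 CPM in the other mice, a ratio of 4.90. Optn and Tax1bp1, receptors for ubiquitin-tagged cargo, and Calcoco1, a receptor for the endoplasmic reticulum, were highest too, by 1.64- to 1.69-fold. Nbr1 was in the 8th place, Wdfy3 in the 13th and Tollip in the 16th, and Ncoa4, the ferritin receptor, was in the 34th place at 0.65-fold. Gabarap, of the same family as Gabarapl1, was highest by 1.88-fold, but Gabarapl2 was in the 8th place, at 1.10-fold.

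Of 11 genes that couple LC3 and GABARAP to the membrane, 1 (Atg16l2) was highest in this mouse, where 15.7% of all genes tested were. The lowest of 36 were 3 of them, namely Atg4a at 0.52-fold, Atg12 at 0.58-fold and Atg5 at 0.64-fold of the other mice, where 15.3% of all genes tested were lowest in this mouse. No fusion gene of 8 was highest, and Ykt6 was the lowest of 36 at 0.64-fold. Lists this short cannot tell 1 of 11 or 0 of 8 from the 15.7% of all genes. Of 18 lysosomal genes, Ctsl included, 8 were highest, led after Ctsl by the membrane protein Lamp2 (2.28-fold) and the proton pump subunit Atp6v1h (2.24-fold), whereas the cathepsin genes Ctsb (0.83-fold, in the 35th place) and Ctsd (in the 18th place) were not. Pink1 was second of 36 at 1.31-fold and the mitophagy receptor Fundc1 lowest at 0.55-fold, with Bcl2l13, another, in the 34th place.

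**Figure D4:**
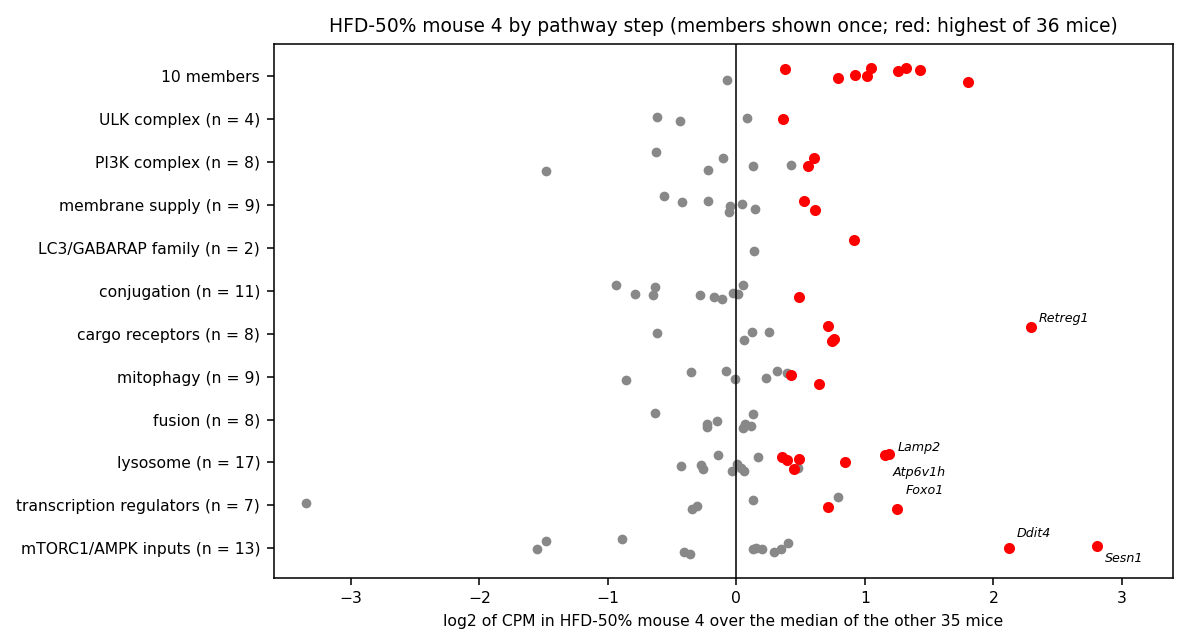
Log2 ratio of the CPM in HFD-50% mouse 4 to the median of the other 35 mice, for the 10 genes and for 96 further pathway genes by step. Each dot is a gene, red where this mouse was the highest of 36. Of the 10 genes 9 are red, of the 11 conjugation genes 1, and of the 8 fusion genes none, beside 15.7% of all genes tested.

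Some regulators were also high in this mouse. Of 8 transcription regulators 3 were highest, namely Tfeb, already counted above as a member, Foxo1 and Zkscan3 (1.64-fold). Of 13 mTORC1 and AMPK inputs 2 were highest (15.4%, beside 15.7% of all genes). Sesn1, a stress-induced inhibitor of mTORC1, stood at 199.6 CPM against a median of 28.5 CPM in the other mice. Ddit4 (REDD1), another mTORC1 inhibitor, was 4.35-fold and Foxo1 2.39-fold the median of the others. Others were low: Deptor, which also inhibits mTORC1, and Foxo6 were the lowest of 36 at 0.36-fold and 0.093-fold, Foxo4 was in the 32nd place, and Mitf and the AMPK subunit Prkaa2 were in the 34th. Of 16 atrophy, FOXO and stress genes, a list written after the values of this mouse were seen, 11 were highest. That count only describes the list, and Sesn1, Ddit4 and Foxo1, given above, are among the 11. Also among them were the muscle ubiquitin ligases Trim63 (5.10-fold) and Fbxo32 (3.89-fold), Cdkn1a (7.85-fold), and the metallothioneins Mt1 (20.4-fold) and Mt2 (25.2-fold). Of the genes in the list that were not highest, Pdk4, Gadd45a and Foxo3 were in the 2nd place. Fkbp5 was in the 9th (1.58-fold) and Fbxo21 in the 31st (0.86-fold). Other features of the library moved with these levels. The sum of 6 fibroblast markers was 200 CPM, against 332 to 549 CPM in the other HFD-50% mice, with Col1a1 at 2.21 CPM and Col3a1 at 5.69 CPM, both the lowest of 36. The sum of the 8 muscle markers was 102760 CPM, against 110959 to 145913 CPM in the rest of the group. In HFD-25% that sum went down to 86572 CPM. Acta1 was the lowest of 36 at 0.56-fold. Myh1 (2.20-fold) and Tnnt3 (1.24-fold) were above the median of the other mice, and the rest of the muscle markers were below it. The sum of 6 endothelial markers was 137 CPM, against 187 to 281 CPM in the rest of the group. Some mice of other groups had a lower sum, down to 116 CPM in HFD-U. Cdh5 was the lowest of 36 at 0.59-fold. Emcn was above the median of the other mice at 1.12-fold, and the rest of the endothelial markers were below it. The sum of 5 Schwann cell markers was 123 CPM, against 63.1 to 77.5 CPM in the rest of the group. That sum reached 276 CPM in NFD-C. The 2 mitochondrial ribosomal RNAs mt-Rnr1 and mt-Rnr2 were the highest of 36. The other 3 features related to ribosomal RNA were the lowest of 36, namely AY036118 (0.42-fold), LOC118568312 (0.46-fold) and Lars2 (0.49-fold). The share on all 5 features, 1.02%, was the highest of the low set. The part of these features in the high levels was not tested.

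The stretches before the start sites of Gabarapl1 and Bnip3 are shown because these are 2 of the genes that stood high together in 1 mouse. Promoter sequences from RefSeq on GRCm38.p6 were found for 7 of the 10 genes and not for Map1lc3a, Bnip3l and Becn1. That of Ctsl, whose ratio was above that of Bnip3, is not printed because its RefSeq start lies 214 bases from the nearest annotated start. Those of Gabarapl1 and Bnip3 are printed 5′ to 3′ on the coding strand, from 250 to 51 bases before the start site. On that older build, whose positions differ from those of GRCm39, they lie at chr6:129532942-129533141 on the plus strand and chr7:138909557-138909756 on the minus strand. Capitals mark matches, on either strand, to the forkhead core TGTTTA, the E-box CACGTG and the hypoxia-response core ACGTG, which the E-box contains. These letters were chosen with the sequences known.
Gabarapl1: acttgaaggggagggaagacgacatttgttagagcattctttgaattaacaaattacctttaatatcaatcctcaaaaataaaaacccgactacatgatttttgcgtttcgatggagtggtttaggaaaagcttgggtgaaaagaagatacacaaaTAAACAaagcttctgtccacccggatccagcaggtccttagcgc
Bnip3: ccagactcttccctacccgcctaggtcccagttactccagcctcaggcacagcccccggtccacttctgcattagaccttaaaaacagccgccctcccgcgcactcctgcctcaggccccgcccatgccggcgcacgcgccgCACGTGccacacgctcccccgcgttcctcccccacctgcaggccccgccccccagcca

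The Gabarapl1 stretch held the forkhead core once, on the opposite strand, beginning 94 bases before the start, and 10.3% of the 32851 promoters in the table hold it in the same 200 bases. The longer form TGTTTAC, which contains the core, was in none of the 9 stretches of the 7 genes and is in 2.58% of promoters. The Ctsl stretch held the core as well, beginning 131 bases before the start, with 1 E-box at 236 bases. The Bnip3 stretch held 1 E-box, beginning 108 bases before the start, which 4.34% of promoters hold, and within it the hypoxia-response core, which 12.9% hold. Both stretches also differ in composition, with 39.5% G and C for Gabarapl1 and 70.0% for Bnip3. A match is a description of these letters, not of a bound site.

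The genes also varied together between mice of the same group. Of the 45 pairs among the 10 genes, all had a positive Pearson's r of log2 CPM after removal of the group means, with a median r of 0.46 over 36 mice. Permutation of mice within groups (two-sided) gave 15 pairs an adjusted p of at most 0.05 over the 45 pairs, and 10 pairs with Spearman's rho. Pairs of other genes were not tested. Whether these counts are particular to the 10 genes therefore cannot be told. Leaving out HFD-50% mouse 4, the median r was 0.15, the lowest -0.30, and 6 pairs reached that level. Much of the joint variation thus rested on this mouse.

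The pair that held most firmly was Sqstm1 and Tfeb. Over 36 mice Pearson's r was 0.81 (permutation p = 1e-05, the smallest that the permutations can give, adjusted p = 0.00045) and Spearman's rho was 0.76 (permutation p = 1e-05, adjusted p = 0.00045). Without the 2 mice farthest from the median of Sqstm1, HFD-50% mice 4 and 6, r was 0.76 with the group means taken again. Without HFD-50% mouse 4 alone r was 0.78. Within the low set r was 0.83 over 26 mice (0.80 without HFD-50% mouse 4) and within the high set 0.68 over 10 mice.

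Gabarapl1 and Bnip3 had r = 0.74 and rho = 0.58 (permutation p = 4e-05 and 0.0009, adjusted p = 0.0009 and 0.0153). Without the mice farthest from the median of Gabarapl1, HFD-50% mouse 4 and HFD-C mouse 1, r was 0.64. Within the low and the high set r was 0.77 and 0.69, and in the low set without HFD-50% mouse 4 it was 0.61. Map1lc3b and Ctsl had the highest r of all pairs, 0.85, with rho = 0.57 (permutation p = 0.00045 and 0.00385, adjusted p = 0.00675 and 0.0346). This pair depended on few mice: r was 0.54 without HFD-50% mouse 4 and 0.37 without HFD-C mouse 6 as well, and in the 10 high-set mice it was -0.18. Ulk1 and Becn1 had r = 0.53 and rho = 0.53 (permutation p = 0.0108 and 0.00594, adjusted p = 0.0438 and 0.0358), and r = 0.55 without HFD-50% mice 4 and 6. Within the low and the high set r of this pair was 0.64 and 0.44, and in the low set without HFD-50% mouse 4 it was 0.75.

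**Figure D5:**
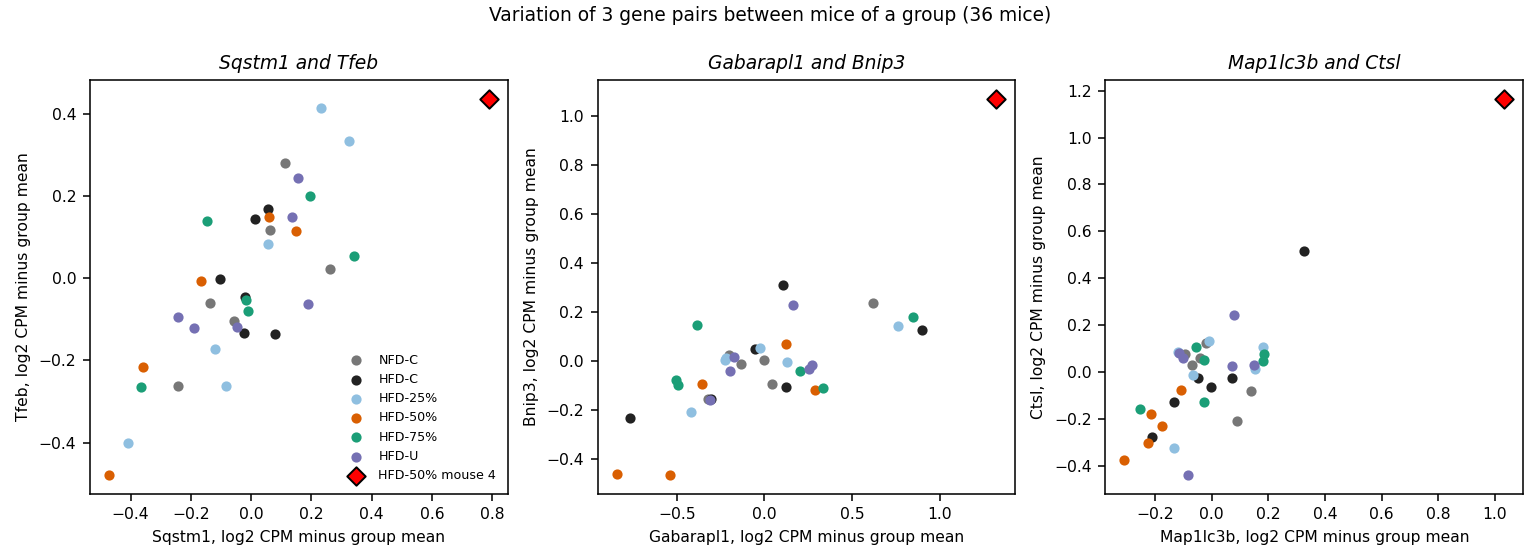
Deviation of each mouse from its group mean, in log2 CPM, for 3 pairs of genes, with 36 mice coloured by group and HFD-50% mouse 4 as a red diamond. In the left panel (Sqstm1 and Tfeb) the mice lie along 1 band with or without the diamond, whereas in the right panel (Map1lc3b and Ctsl) the diamond and 1 HFD-C mouse lie far from the rest.

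The 3 genes whose pattern over the 36 libraries was most like that of Map1lc3a, by the root mean square difference of centred log2 CPM, were Eef1b2 (0.15), Rps9 (0.15) and Psmb4 (0.16). For Ctsl they were Map1lc3b (0.16), Hsd17b10 (0.19) and Gabarap (0.19). The SD of these 2 members on the same scale was 0.29 and 0.30.

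Sesn1 and Foxo1, outside the 10 genes, passed an adjusted threshold. Sesn1 differed among the 6 groups (adjusted p = 0.00578 in edgeR), with means of 22.1 ± 6.01 CPM in NFD-C, 22.1 ± 3.78 CPM in HFD-C, 32.5 ± 6.43 CPM in HFD-25%, 71.0 ± 65.3 CPM in HFD-50%, 34.8 ± 11.5 CPM in HFD-75% and 31.5 ± 9.73 CPM in HFD-U (SD, n = 6). Without HFD-50% mouse 4 the adjusted p was 0.0502 in edgeR. In HFD-50% alone against HFD-C, Sesn1 was higher by 1.70 with that mouse and by 1.04 without it on the log2 scale (SE 0.40 and 0.21, adjusted p = 0.14 and 0.10 in edgeR).

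Foxo1, which drives atrophy and autophagy genes in muscle, changed with distance over the 30 high-fat mice (adjusted p = 0.0400 in edgeR). Its means were 33.6 ± 14.8 CPM in HFD-C, 66.3 ± 25.3 CPM in HFD-25%, 84.5 ± 34.5 CPM in HFD-50%, 78.04 ± 22.4 CPM in HFD-75% and 44.0 ± 22.2 CPM in HFD-U (SD, n = 6). Without HFD-50% mouse 4 the adjusted p was 0.0646 in edgeR, and over the 24 runners alone, all of the low set, the adjusted p was 0.45 in edgeR. The NFD-C mean was 58.1 ± 31.1 CPM. The 10 genes did not follow Foxo1 past the test in the same fit, where their adjusted p-values lay between 0.50 and 0.98 in edgeR. Of the 96 pathway genes, 9 were nominal among the 6 groups (6 without HFD-50% mouse 4) and 17 over the 30 high-fat mice (14 without it), beside 12.2% of all genes in both tests.

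By step, the nominal genes among the 6 groups were few, and apart from Sesn1 none passed the adjusted p in edgeR. In the coupling step they were 2 of 11 genes, Atg4a, a protease that processes LC3 and GABARAP (means from 26.1 CPM in HFD-50% to 36.9 CPM in HFD-U), and Atg16l1, which guides the coupling to the membrane (from 19.95 CPM in HFD-C to 24.6 CPM in HFD-75%). In the lipid kinase complexes they were 2 of 9, the inhibitor Rubcn (from 31.0 CPM in HFD-50% to 38.9 CPM in HFD-U) and the scaffold Ambra1 (from 29.4 CPM in HFD-C to 37.4 CPM in HFD-50%). Among cargo receptors they were 2 of 9, Retreg1 (203.8 CPM in HFD-U to 396 CPM in HFD-50%) and Calcoco1 (97.1 CPM in NFD-C to 124 CPM in HFD-50%), both of which were highest in HFD-50% mouse 4.

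No gene was nominal among the 5 of the ULK complex, 9 of membrane supply, 5 of the LC3 and GABARAP family, 11 of mitophagy, 8 of fusion or 18 of the lysosome. The smallest adjusted p-values there in edgeR were 0.68 for Atg13 and Atg101, 0.45 for the lipid-binding Wdr45b and 0.61 for Atg2a, 0.49 for the mitochondrial Phb2, 0.53 for Tecpr1 and 0.63 for Rab7, and 0.41 for the lysosomal protease Tpp1 and 0.44 for Atp6v1h. Among regulators, Foxo1 and Foxo6 were nominal of 8 and Sesn1 of 13, with Sesn3 next (adjusted p = 0.64 in edgeR).

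In HFD-50% against HFD-C, 9 of the 96 pathway genes were nominal, 5 of them higher (Retreg1, Foxo1, Sesn1, Ambra1 and Foxo3) and 4 lower (Atg4a, Atg3, Foxo6 and Sesn3), beside 10.7% of all genes. Their median log2 fold change was -0.01, beside 0.31 for the 10 genes and 0.01 for all genes, and without HFD-50% mouse 4 it was -0.04, beside 0.02 for the 10 genes. With that mouse left out, 7 were nominal, 3 of them higher, and Retreg1 differed by 0.31 (SE 0.27, adjusted p = 0.78 in edgeR) in place of 0.86.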

How the data were processed

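Whole-number counts per gene were deposited by the authors for 36 gastrocnemius libraries (poly(A)-selected RNA); the submitters' processing notes name HISAT2 2.0.5 and featureCounts 1.5.0-p3. The labels name mm10, but the sequence names beside the deposited counts are those of GRCm39. No normalization had been applied to the counts.

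Groups were taken from the treatment label. A fit kept genes whose mean count was 25 or more, scaled by TMM, and tested with the quasi-likelihood test of edgeR 4.0.16 (R 4.3.3), two-sided, with Benjamini-Hochberg adjustment over all genes. Calls were made at a threshold of 0.05 before adjustment (nominal, the limit of the study) and after it. The fits covered 11 pairs of groups, all 6 groups, and linear and quadratic terms of distance. FPKM were computed with the deposited gene lengths. Joint variation was tested with 100000 permutations of mice within groups. Scripts were tested on simulated data.

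All 10 members are named. Further genes come from 11 pathway lists: those past the adjusted threshold and the 2 of each list with the smallest p among the 6 groups are named, and any other was chosen after its values were seen. For the 2 members with the smallest p among the 6 groups, the 3 genes with the most similar pattern are given. Members, lists and tests were chosen with earlier results of these data known. Alternatives were DESeq2 1.42.0, RLE factors, no minimum count, 1 fit over all libraries, a block for mouse number, a term for the 2 library sets, the low set alone, removal of the rRNA-linked features, the mice numbered 2 to 6, and leaving out each mouse. Pairs of running groups other than HFD-50% against HFD-U had only DESeq2 and the block. Where HFD-50% was in such a pair, HFD-50% mouse 4 was also left out.

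Mice carry numbers 1 to 6 in each group, and no source says that a number marks a shared litter or day. Same-numbered mice deviated together, by a correlation of their deviations over 0.1, in all 6 pairs only in HFD-U against HFD-C (r from 0.12 to 0.50), in 1 to 5 of 6 pairs elsewhere. Whether mice were littermates or cage mates is not given, so p-values measure the spread between these 36 samples.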

Additional observations from a re-analysis of the deposited data

Results flagged for a closer look

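For each of the 10 genes in each of the 6 groups, the gap between the highest or lowest mouse and its neighbour was compared with Dixon's critical value for 6 mice. Of 60 groups, 14 were beyond it, whereas chance flags about 1 in 20 groups, and genes that vary together are not independent. HFD-50% mouse 4 accounts for 6 of the 14: 324 CPM for Map1lc3a, 399.7 CPM for Map1lc3b, 172 CPM for Gabarapl1, 766 CPM for Bnip3, 118 CPM for Bnip3l and 220 CPM for Ctsl, each far above the other 5 mice of the group. HFD-C mouse 6 was far above its group for Map1lc3a (259 CPM) and Ctsl (122 CPM). The mice numbered 1 were far above their groups for Gabarapl1 in NFD-C (73.5 CPM) and HFD-25% (87.3 CPM). NFD-C mouse 2 was high for Bnip3l (92.1 CPM). Low values stood apart for Ulk1 in HFD-U mouse 4 (69.3 CPM) and for Ctsl in HFD-25% mouse 2 (61.3 CPM) and HFD-U mouse 2 (60.1 CPM).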

How the results depend on the processing

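No member passed the adjusted p in any of 246 counts from alternatives, so only counts at an unadjusted p moved (62 of 246). They were 1 with the term for the library sets in NFD-C, HFD-75% and HFD-U against HFD-C, among the 6 groups and over the 30 high-fat mice, and 2 in HFD-25% against HFD-C; in the low set alone they were 2, 1 and 1 for HFD-25%, HFD-75% and HFD-U. HFD-25% against HFD-C gave 0 with the replicate block, no minimum count, RLE factors, 1 fit over all libraries and the mice numbered 2 to 6. In 1 fit, HFD-50% had 2 against HFD-C and 4 against HFD-U. With the mice numbered 2 to 6 HFD-50% against HFD-C had 1 and the 6 groups 1. DESeq2 gave 2 in HFD-50% against HFD-U, 2 in HFD-25% against HFD-75%, 1 among the 6 groups and 2 over the 24 runners. Without a minimum count there were 2 in HFD-50% against HFD-U, 2 among the 6 groups and 2 over the 24 runners. The replicate block gave 2 in HFD-50% against HFD-U and 1 among the 6 groups, and changed no other count apart from HFD-25% against HFD-C. In the fits behind these 27 counts 3.7 to 20.3% of all genes were nominal, and the share of the 10 genes was above that of all genes in 15.

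Leaving out 1 mouse gave 0 to 1 in HFD-25%, HFD-50% and HFD-75% against HFD-C (HFD-50%: 1 without HFD-C mice 1 or 6; HFD-75%: 1 without HFD-C mouse 6) and 1 to 2 in HFD-50% against HFD-U and over the 24 runners. It gave 0 to 1 over the 30 high-fat mice (1 without HFD-C mice 1 or 6 or HFD-50% mouse 4), and 0 to 4 among the 6 groups (4 without HFD-50% mouse 3). Without HFD-50% mouse 4, 11.6% of all genes were nominal over the 30 high-fat mice, 8.01% over the 24 runners and 11.1% among the 6 groups. For the other mice left out that share is not given here, so whether these counts exceed it cannot be told. Pairs that varied together numbered 15, 7 without the mice numbered 1 and 6 without HFD-50% mouse 4.

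The other sign was seen in 121 of 1360 log2 fold changes, with 32 of 210 in HFD-25% against HFD-C. It was seen in 0 of 20 in HFD-25% against HFD-75%, HFD-25% against HFD-U and HFD-75% against HFD-U. These comparisons were refitted only with DESeq2 and the replicate block, so their counts cannot be set beside the others. With the set term Map1lc3a went from 0.20 to -0.23 in HFD-75% and from -0.15 to 0.12 in NFD-C. In HFD-50% against HFD-C 18 of 210 did. With the replicate block, Sqstm1 was -0.0155 and Bnip3l -0.0396. Bnip3l was -0.00137 without a minimum count, -0.0401 with the set term and -0.0286 in the low set, where Map1lc3a was -0.13 and -0.11. Leaving out 1 mouse, Bnip3l ranged from -0.21 to 0.0604, Becn1 from -0.0561 to 0.0341, Sqstm1 from -0.16 to 0.14 and Ctsl from -0.0469 to 0.43, the lowest values of Bnip3l, Sqstm1 and Ctsl being those without HFD-50% mouse 4. The cause was not tested. With 6 mice a group, differences inside the 95% intervals given for each gene could not be told from 0.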
